A study of Mus musculus with 23 samples.

Results

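The genes described here encode the synaptic vesicle and SNARE machinery of the mouse nucleus accumbens. They were taken by symbol from the array's platform annotation: syntaxins (Stx), syntaxin-binding proteins (Stxbp), vesicle-associated membrane proteins (Vamp), Snap genes, synaptotagmins (Syt), synapsins, Syp, Sv2 genes, complexins (Cplx), Nsf, the Nsf adaptors Napa, Napb and Napg, and every symbol starting with Rab3. Of 8251 genes tested, 52 were members, each read from the probe set with its highest mean. The pattern also took genes outside this machinery: Rab31, Rab33a, Rab33b, Rab34 and Rab35, which are not Rab3 GTPases, and Snap91, a clathrin coat protein that is no SNARE.

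In a synaptic terminal, a SNARE of the vesicle (a Vamp protein) zips together with SNAREs of the target membrane (a syntaxin and a Snap25-type protein) and the membranes fuse. Proteins of the Stxbp family and complexins bind this complex, synaptotagmins sense calcium, and the ATPase Nsf with its SNAP adaptors pulls the spent complexes apart. In the accumbens, part of the ventral striatum, this machinery serves release from local inhibitory neurons and from incoming dopamine and glutamate axons, and methamphetamine itself acts on the vesicular and plasma membrane monoamine transporters.

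The 4 groups were HMACT mice given methamphetamine (MA, 2 mg/kg), HMACT mice given saline (SAL, 0 mg/kg), LMACT mice given MA and LMACT mice given SAL. HMACT and LMACT are short-term selected lines bred from a C57BL/6J and DBA/2J cross for a high or a low acute activity response to MA, and the labels name 1 line of each kind. All mice were killed 1 hour after the injection. There were 6, 6, 5 and 6 arrays in these groups, each hybridised with RNA from a pool of 4 mice. Tissue pools do not separate fewer cells of a type from less RNA per cell.

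Values are log2 expression as deposited, from 2.23 to 16.4 over all genes, and those under 2.3 are treated as the floor of the array. The striatal genes Penk, Tac1, Pdyn, Pde1b and Drd2 were above the floor on all 23 arrays, while Rgs9 was at the floor on all of them. Of the septal and cortical markers, Tbr1 and Zic1 were above it on all 23, Neurod6 on 1 and Trh on none. Of the choroid plexus and ependymal markers, Folr1, Aqp1 and Foxj1 were above it on all 23, Kl on 5 and Ttr on none. HMACT pools were older, at a mean of 115 days after MA and 114 days after SAL, against 76.9 days in LMACT MA pools and 76.3 days in LMACT SAL pools. In both HMACT groups, pools 1 to 3 were at 141.5 to 154 days and pools 4 to 6 at 77.25 to 88 days. Pools under 100 days numbered 3 in HMACT MA, 3 in HMACT SAL, 4 in LMACT MA and 5 in LMACT SAL. The largest shared variation within groups ran along 1 axis, the first principal component of the residuals, with 62.1% of the residual variance over 5308 genes. Array scores on it averaged 5.66 in HMACT MA, 16.1 in HMACT SAL, -2.29 in LMACT MA and -19.9 in LMACT SAL, and 4 arrays stood apart at its high end: HMACT MA 3, HMACT SAL 3, HMACT SAL 5 and LMACT MA 4. On another array, LMACT MA 5, the Gapdh and actin control probe sets at the 3' end exceeded those at the 5' end by 4.57 log2 units on average, where the group means were 2.35 in HMACT MA, 2.11 in HMACT SAL, 2.87 in LMACT MA and 2.63 in LMACT SAL.

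Of the 52 members, 43 were above the floor on every array, 7 on some arrays only, and 2 (Syt8 and Syt9) on none. A further 10 held the same value on most arrays: Stx8, Vamp1, Vamp5, Syt6, Syt7, Syt10, Rab3a, Rab3d, Rab3il1 and Rab35. Rab3a, the most studied Rab GTPase of synaptic vesicles, was at the floor on 22 of 23 arrays, and Vamp1, a vesicle SNARE closely related to Vamp2, on 21. The other 40 members varied on most arrays and carry the counts of direction below, while calls, p-values and non-overlap are counted over all 52. Of the genes regarded as the core of the machinery, 13 were members.

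**Figure D1:**
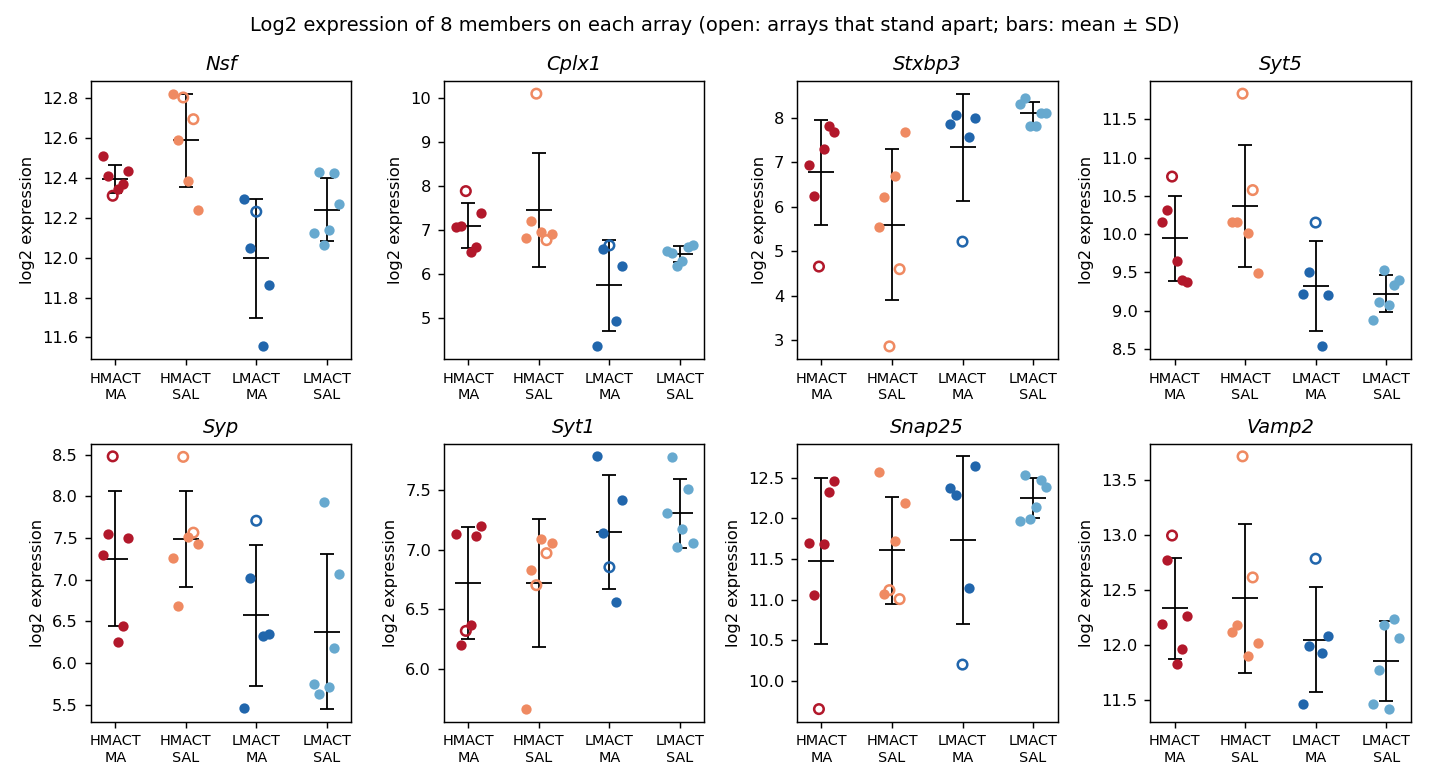
Log2 expression (vertical axis) of 8 members on each array in the 4 groups; filled points are arrays, open points the 4 arrays that stand apart, and bars the group mean ± SD. The 6 HMACT MA arrays of Nsf lie between 12.31 and 12.51, above all 5 LMACT MA arrays, while the groups of Snap25 and Vamp2 overlap.

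No member passed an adjusted p of 0.05 in any of the 7 comparisons of the limma fit. For MA minus SAL averaged over the lines, 0 of 52 members were called, against 0.0242% of all genes. For HMACT minus LMACT averaged over the injections the count was 0 of 52, against 0.194%. The share of all genes was 0.0121% for MA minus SAL in HMACT, and 0% for MA minus SAL in LMACT, for the lines after MA, for the lines after SAL and for the interaction. Before adjustment, 15 of 52 members (28.8%) had a p under 0.05 between the lines, against 12.7% of all genes. That background is all 8251 genes, of which 6162 were not at the floor on every array, against 50 of the 52 members. Backgrounds for calls, p-values and non-overlap here and below are thus not matched for signal. An excess of members over them may be overstated, and shares over the 6162 genes alone were not counted. Among the 15, Rab3d held 1 value on most arrays and differed by 0.04. Of these 15, 9 were higher in HMACT, against a background of 4.97%, and 6 were lower, against 7.7%. Between MA and SAL 2 members had such a p, against 1.5% of all genes. After SAL alone 12 of 52 members (23.1%) had one between lines, against 15.2% of all genes, and after MA alone 4 (7.69%), against 4.29%. With limma's array weights the line difference was called for 10 members, and with each array centred on its median for 14. These were 19.2% and 26.9% of the members, against 10.1% (830) and 34.6% (2854) of all genes, and with the centring 1951 of the 2854 genes were at the floor on every array.

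Members differed more between lines than between injections, as other genes did. Over the 40 varying members the median size of the line difference was 0.31 log2 units, against 0.20 over the 4727 genes that varied by the same rule. Over the 50 members not at the floor throughout it was 0.22, against 0.13 over 6162 such genes. The median size of the MA difference was close to that of genes at large, at 0.087 over the 40 members against 0.084 over the 4727 genes, and 0.066 over the 50 against 0.062 over the 6162. The members did not lean one way: 19 were higher and 21 lower in HMACT, with a median of -0.01, and 15 were higher and 25 lower after MA, with a median of -0.04. The medians over the 4727 varying genes were -0.004 between lines and -0.006 between injections. These counts are descriptions of the members, with no test of the set.

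**Figure D2:**
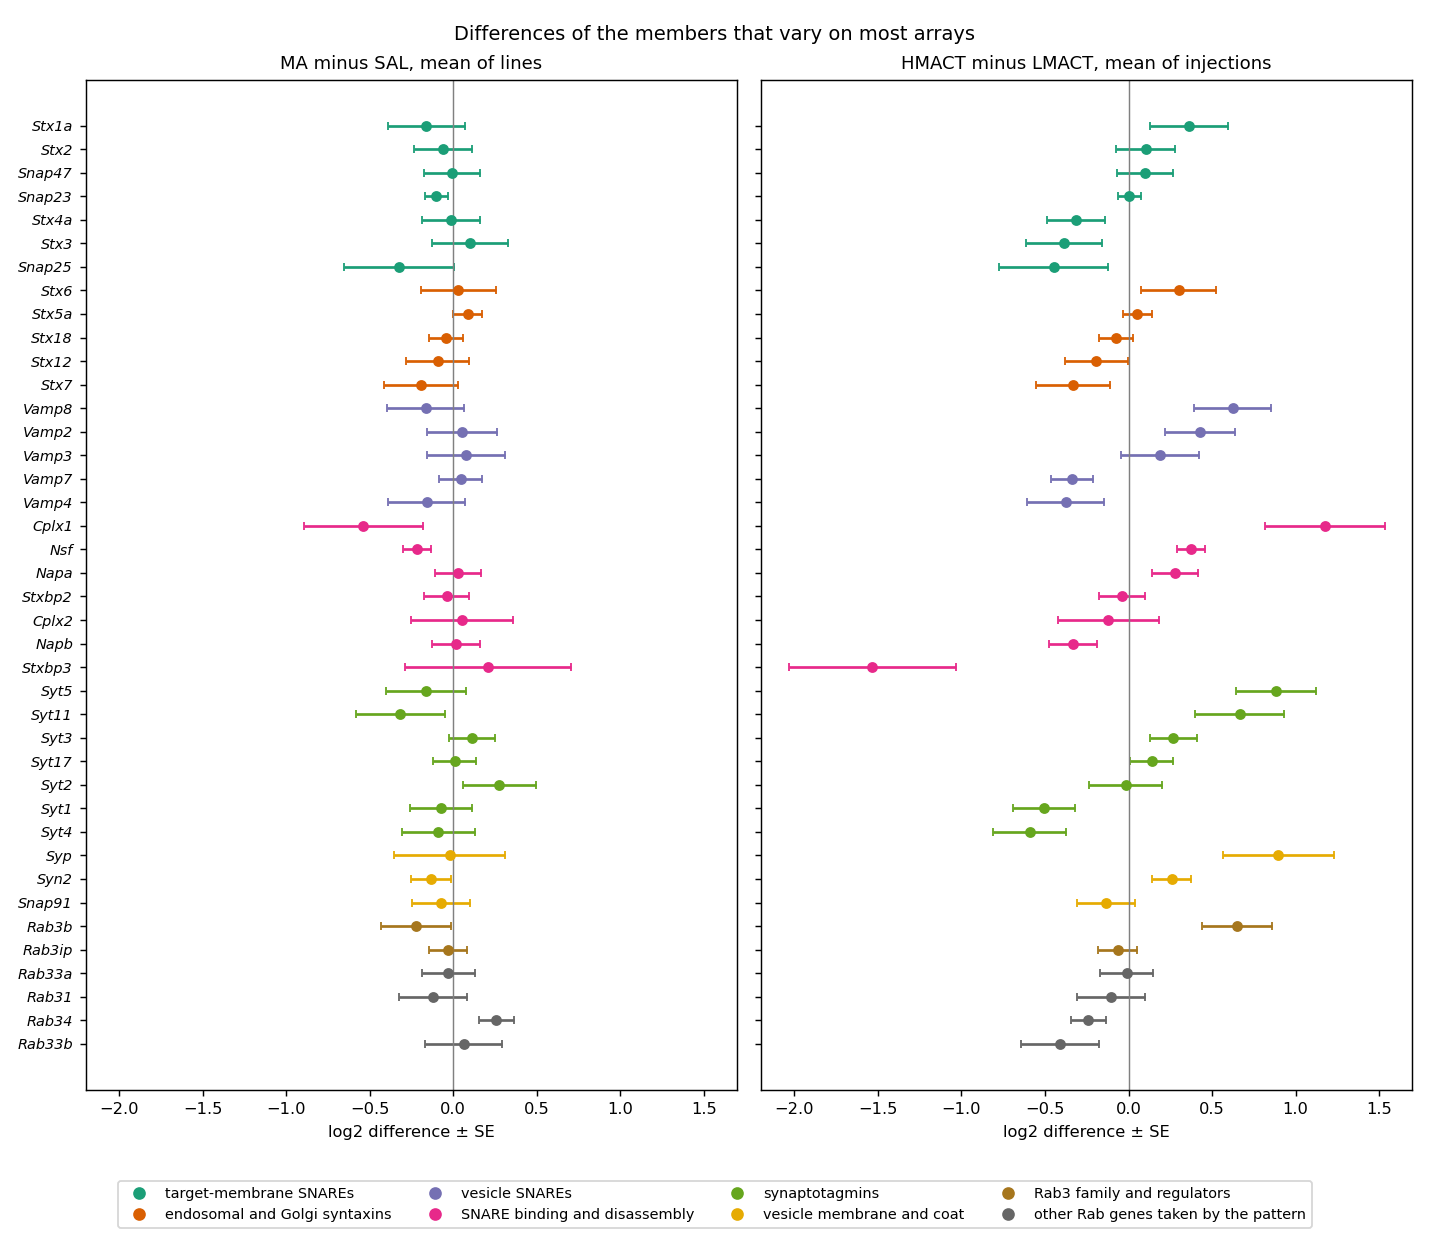
Log2 differences ± SE (horizontal axes) of the 40 varying members, coloured by role, for MA minus SAL (left) and HMACT minus LMACT (right). Line differences run from -1.53 for Stxbp3 to 1.18 for Cplx1, and MA differences from -0.54 for Cplx1 to 0.28 for Syt2.

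The largest line differences were among the proteins that bind SNAREs or take them apart. Nsf, the ATPase that disassembles spent SNARE complexes, had the smallest p of any member between lines. Its lowest, median and highest values were 12.31, 12.39 and 12.51 in HMACT MA and 12.24, 12.64 and 12.82 in HMACT SAL. In LMACT MA the 5 values were 12.29, 12.05, 12.23, 11.56 and 11.86, and LMACT SAL ran from 12.06 over a median of 12.21 to 12.43. After MA every HMACT array was above every LMACT array, and after SAL the lines overlapped. Non-overlap in this direction after MA was found for 1 of 52 members, against 0.327% of all genes. The mean line difference was 0.37 (SE 0.08, 1.30-fold, limma adjusted p = 0.0771), and all 12 HMACT arrays were above the LMACT mean of their injection.

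Nsf lay close to the threshold between lines. Leaving out HMACT SAL 6, LMACT MA 2 or LMACT MA 4 brought its adjusted p to 0.0357, 0.0498 and 0.0437, and leaving out any other array kept it over the threshold, at up to 0.196. With array weights it was called between lines at 0.32 (limma adjusted p = 0.0125), and with mean age as a covariate the difference was 0.31 (adjusted p = 0.774). Nsf covaried weakly with the array axis, with r = 0.279 between the within-group deviations and the axis score over 23 arrays. With that score as a covariate the line difference was 0.33.

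Nsf also had the smallest p of any member for MA. It was lower after MA by 0.22 on the log2 scale (SE 0.08, 1.16-fold, unadjusted p = 0.0174, adjusted p = 1), and 10 of 11 MA arrays were below the SAL mean of their line. The differences were -0.19 in HMACT and -0.24 in LMACT. The lowest Nsf value of all, 11.56, was on LMACT MA 5, the array with the high 3' to 5' difference. Without it the mean MA difference was -0.16, and in LMACT it was then -0.13.

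Cplx1, a complexin that clamps the partly zipped SNARE complex until calcium arrives, ran from 6.51 over a median of 7.09 to 7.88 in HMACT MA and from 6.77 over 6.94 to 10.09 in HMACT SAL. The LMACT MA values were 4.36, 6.57, 6.65, 4.94 and 6.20, and LMACT SAL ran from 6.18 over 6.50 to 6.66. After SAL the lines did not overlap, as for 0.376% of all genes in this direction, and after MA they overlapped narrowly. The mean line difference was 1.18 (SE 0.36, 2.26-fold, adjusted p = 0.221, and 0.74 with age as a covariate), with 12 of 12 HMACT arrays above the LMACT mean. The highest Cplx1 value, 10.09, was on HMACT SAL 3, which stands apart, and without that array the difference was 0.91. After SAL alone it was 1.00 with that array and 0.48 without it. Cplx1 was lower after MA by 0.54 (SE 0.36, adjusted p = 1), and by 0.27 without that same array. The other complexin, Cplx2, differed between lines by -0.12 and after MA by 0.05, with adjusted p = 0.95 and 1.

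Stxbp3, a syntaxin-binding protein best known for pairing with Stx4-type syntaxins outside the synapse, varied widely between arrays. It ran from 4.65 over a median of 7.11 to 7.81 in HMACT MA, and from 2.86 over 5.88 to 7.67 in HMACT SAL. LMACT MA arrays read 7.85, 8.06, 5.21, 7.56 and 7.99, and LMACT SAL ran from 7.80 over 8.10 to 8.45. All HMACT SAL arrays were below all LMACT SAL arrays, and the MA groups overlapped. The mean line difference was -1.53 (SE 0.50, 2.89-fold, adjusted p = 0.26), and -2.50 after SAL (SE 0.69, 5.65-fold, adjusted p = 0.32). The 3 lowest values, 2.86, 4.59 and 4.65, and LMACT MA 4 at 5.21 were on the 4 arrays that stand apart. Without them the line difference after SAL was -1.56, and with the axis score as a covariate -1.07.

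The promoters of these 3 genes are shown because they are the members with the smallest p in each direction and the largest differences. The 250 bases before the start of each gene are from RefSeq on GRCm38.p6, all on the minus strand, at chr11:103954057-103954306 for Nsf, chr5:108550028-108550277 for Cplx1 and chr3:108840503-108840752 for Stxbp3. Capitals mark a GC box (GGGCGG) or a cAMP response element (TGACGTCA), searched on both strands.
Nsf: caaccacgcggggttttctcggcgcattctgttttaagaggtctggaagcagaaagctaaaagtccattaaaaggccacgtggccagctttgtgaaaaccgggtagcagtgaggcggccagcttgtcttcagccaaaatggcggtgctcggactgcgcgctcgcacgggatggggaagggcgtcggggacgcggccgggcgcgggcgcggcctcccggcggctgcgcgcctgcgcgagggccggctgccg
Cplx1: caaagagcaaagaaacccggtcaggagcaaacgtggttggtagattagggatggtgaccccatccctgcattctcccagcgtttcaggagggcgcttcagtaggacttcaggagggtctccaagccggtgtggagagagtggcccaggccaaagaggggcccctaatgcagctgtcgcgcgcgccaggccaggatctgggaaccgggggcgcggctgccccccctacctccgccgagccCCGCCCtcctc
Stxbp3: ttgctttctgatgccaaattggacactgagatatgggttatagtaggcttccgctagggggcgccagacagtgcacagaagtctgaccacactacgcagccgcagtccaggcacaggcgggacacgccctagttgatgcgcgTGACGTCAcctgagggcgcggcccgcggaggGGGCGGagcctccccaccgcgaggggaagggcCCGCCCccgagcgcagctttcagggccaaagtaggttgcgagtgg
In these windows Nsf held neither motif, Cplx1 1 GC box, and Stxbp3 2 GC boxes and 1 cAMP response element, with no overlap between the motifs. Among the 61 promoters of the 44 members matched by symbol, 60.7% held a GC box and 1.64% a cAMP response element, against 32.7% and 1.55% of all 32851 promoters. An Egr site (GCGGGGGCG), a part of the RE1 element (TTCAGCACC) and a TATA box (TATAAA) were searched in the same windows and were in none of the 3. They were in 4.92%, 0% and 4.92% of the member promoters, against 2.57%, 0.301% and 12.4% of all promoters. The 32851 promoters were not limited to the genes tested, and the 1 member promoter with a cAMP response element was that of Stxbp3. Genes with several starts count once per start, GC box and Egr matches may overlap elsewhere, and the matches describe the letters only.

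Among the other genes of this role, the SNAP adaptors had line differences of opposite sign. Napa (alpha-SNAP) averaged 10.28 ± 0.31 in HMACT MA, 10.42 ± 0.44 in HMACT SAL, 10.16 ± 0.38 in LMACT MA and 9.97 ± 0.09 in LMACT SAL. Its line difference was 0.28 (adjusted p = 0.4), and its covariation with the array axis was the closest of any member, r = 0.949. Napb (beta-SNAP, the brain form) averaged 8.18 ± 0.30 in HMACT MA, 8.19 ± 0.32 in HMACT SAL, 8.54 ± 0.53 in LMACT MA and 8.50 ± 0.15 in LMACT SAL. Its line difference was -0.33 (adjusted p = 0.355), while its other probe set, which correlated with it at r = 0.364 over the arrays, gave 0.15. The MA difference of Napb was 0.02, and -0.38 by that other probe set. Stxbp2, a syntaxin-binding protein of non-neuronal secretion, differed by -0.04.

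The plasma membrane SNAREs of the terminal were strongly variable and not called. Snap25, the SNARE with a pair of SNARE helices, ran from 9.66 over a median of 11.69 to 12.45 in HMACT MA and from 11.01 over 11.42 to 12.57 in HMACT SAL. In LMACT MA the 5 values were 12.38, 12.29, 10.20, 11.15 and 12.64, and LMACT SAL ran from 11.97 over 12.26 to 12.53. The 3 lowest values were on arrays that stand apart, and the groups overlapped. The line difference was -0.45 (SE 0.33, adjusted p = 0.584). It turned to 0.10 with the axis score as a covariate and to 0.03 in the 15 pools under 100 days of age. The MA difference was -0.33 (SE 0.33, adjusted p = 1), and 0.27 with array weights.

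Stx1a, the syntaxin of the presynaptic membrane, averaged 7.40 ± 0.48 in HMACT MA, 7.71 ± 0.78 in HMACT SAL, 7.18 ± 0.59 in LMACT MA and 7.20 ± 0.27 in LMACT SAL. It differed between lines by 0.36 (SE 0.23, adjusted p = 0.518), and by 0.13 without the arrays that stand apart. Its MA difference of -0.16 was -0.04 without LMACT MA 5, -0.06 without HMACT SAL 3 and -0.26 without HMACT MA 3. Stx3 was lower in HMACT after SAL without overlap, at 3.12, 5.09 and 5.27 (lowest, median and highest) in HMACT SAL, against 5.35, 5.49 and 5.85 in LMACT SAL. The difference was -0.74 (adjusted p = 0.321), and without HMACT SAL 3, which held the lowest value, -0.40. Stx4a, Stx2, Snap47 and Snap23 had line differences of -0.32, 0.10, 0.10 and 0.00. Of the 7 target-membrane SNAREs, 4 were higher and 3 lower in HMACT, and 1 was higher and 6 lower after MA. The smallest unadjusted p among them between lines was 0.0841.

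Of the 5 varying syntaxins of endosomes and the Golgi, Stx7, Stx12, Stx6 and Stx5a had r of -0.846, -0.843, 0.606 and 0.835 with the array axis, and Stx18 had 0.219. Stx7, of late endosomes, ran from 8.72 over a median of 9.78 to 10.10 in HMACT SAL, and from 10.11 over 10.18 to 10.36 in LMACT SAL. The groups did not overlap, by a narrow margin, and the difference was -0.61 (adjusted p = 0.339). With the axis score as a covariate it was -0.04. Stx12 and Stx18 had mean line differences of -0.19 and -0.07, and Stx6 and Stx5a of 0.30 and 0.05.

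Among the vesicle SNAREs, Vamp2, the synaptobrevin of synaptic vesicles, ran from 11.82 over a median of 12.23 to 13.00 in HMACT MA and from 11.90 over 12.15 to 13.72 in HMACT SAL. The LMACT MA values were 11.46, 11.99, 12.78, 11.93 and 12.08, and LMACT SAL ran from 11.42 over 11.92 to 12.23. The highest values in HMACT MA, HMACT SAL and LMACT MA were each on an array that stands apart, and all groups overlapped. The line difference was 0.43 (SE 0.21, adjusted p = 0.402), 0.99 by its other probe set, and 0.11 with the axis score as a covariate. The MA difference was 0.05, and -0.41 by its other probe set. Vamp8, an endosomal SNARE also used in granule secretion, was 0.62 higher in HMACT (SE 0.23, adjusted p = 0.317), with 11 of 12 arrays above the LMACT mean, and 0.19 higher by its other probe set. Both Vamp8 probe sets carry the suffix that the manufacturer gives to sets matching several similar sequences. Vamp4, of the trans-Golgi network, and Vamp7, of late endosomes, had line differences of -0.38 (SE 0.23) and -0.34 (SE 0.13, adjusted p = 0.32). Vamp7 was at the floor on 5 arrays, and Vamp3 on 10.

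Synaptotagmins, the calcium sensors and their relatives, gave 4 members higher and 3 lower in HMACT among the 7 that varied, with none called. Syt1, the main sensor for fast release, ran from 6.21 over a median of 6.75 to 7.20 in HMACT MA and from 5.67 over 6.90 to 7.09 in HMACT SAL. LMACT MA arrays read 7.78, 7.14, 6.85, 6.56 and 7.42, and LMACT SAL ran from 7.02 over 7.24 to 7.77. HMACT arrays lay lower, with 11 of 12 below the LMACT mean, and the groups overlapped. The line difference was -0.51 (SE 0.19, adjusted p = 0.314), -0.42 with the axis score as a covariate and -0.25 in pools under 100 days. The MA difference was -0.08.

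Syt5, a calcium-binding synaptotagmin, had a line difference of the opposite sign. It ran from 9.37 over a median of 9.91 to 10.75 in HMACT MA and from 9.49 over 10.16 to 11.83 in HMACT SAL. In LMACT MA the 5 values were 9.22, 9.51, 10.15, 8.53 and 9.20, and LMACT SAL ran from 8.88 over 9.22 to 9.54. All 12 HMACT arrays were above the LMACT mean of their injection, with overlap in both injections. The line difference was 0.89 (SE 0.24, 1.85-fold, adjusted p = 0.175), 0.50 with the axis score as a covariate and 0.53 with age.

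Syt11 and Syt4 are related synaptotagmins whose first C2 domain does not bind calcium in the usual way. Syt11 was higher in HMACT by 0.66 (SE 0.27, adjusted p = 0.338), with 12 of 12 arrays above the LMACT mean. Its highest value, 10.47, was on HMACT SAL 3. Without the 4 arrays that stand apart, Syt11 was the 1 member that passed, at 0.52 (SE 0.10, limma adjusted p = 0.0354), or 1.92% of members against 0.558% of all genes. With the axis score as a covariate it did not pass, at 0.48 (adjusted p = 0.679). Syt4 was lower, by a difference of -0.59 (SE 0.22, adjusted p = 0.314), and -0.23 with the axis score as a covariate. After SAL its lines did not overlap, at 3.62, 4.41 and 4.85 in HMACT SAL, against 4.97, 5.22 and 5.49 in LMACT SAL (lowest, median and highest). In all, 4 of 52 members were lower without overlap after SAL (Stx3, Stx7, Stxbp3 and Syt4), against 1.51% of all genes. Stx7 overlapped after quantile normalization, and Stx3 and Stx7 after median centring. Syt3, Syt17 and Syt2 had line differences of 0.27, 0.14 and -0.02, and Syt2 an MA difference of 0.28 (SE 0.22, adjusted p = 1).

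Syp (synaptophysin), the classical membrane protein of synaptic vesicles, ran from 6.26 over a median of 7.40 to 8.48 in HMACT MA and from 6.69 over 7.47 to 8.48 in HMACT SAL. The LMACT MA values were 5.46, 7.02, 7.71, 6.32 and 6.34, and LMACT SAL ran from 5.63 over 5.96 to 7.93. The groups overlapped widely, with 10 of 12 HMACT arrays above the LMACT mean. The line difference was 0.90 (SE 0.33, 1.86-fold, adjusted p = 0.315) and the MA difference -0.02. Syn2, a synapsin that holds vesicles in the reserve pool, differed between lines by 0.26 (SE 0.12, adjusted p = 0.382), and by 0.14 without LMACT MA 5. Its MA difference of -0.13 was -0.02 without that array. Snap91, the clathrin adaptor AP180, differed by -0.14 between lines.

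Of the Rab3 GTPases, which mark vesicles for tethering, Rab3b alone varied on most arrays. It averaged 5.79 ± 0.35 in HMACT MA, 6.11 ± 0.81 in HMACT SAL, 5.24 ± 0.33 in LMACT MA and 5.36 ± 0.33 in LMACT SAL. The line difference was 0.65 (SE 0.21, 1.57-fold, adjusted p = 0.256), with 11 of 12 arrays above the LMACT mean. Rab34, a Golgi and lysosome Rab, was the other member with a low unadjusted p for MA, at a mean difference of 0.26 (SE 0.11, limma adjusted p = 1). In LMACT the MA arrays read 7.79, 7.31, 8.10, 7.30 and 7.54, and SAL ran from 6.81 over 7.20 to 7.45, a difference of 0.45 (SE 0.15, unadjusted p of 0.00797 and adjusted p = 1 by limma). Rab34 was the 1 member of 52 with an unadjusted p under 0.05 for MA in LMACT, against 3.33% of all genes under 0.05. All 5 LMACT MA arrays were above the SAL mean, though the ranges overlapped. In HMACT the difference was 0.06, and the interaction of -0.39 had an adjusted p of 0.86. Rab31, a Rab of the Golgi and endosomes, had an MA difference of -0.45 in LMACT (SE 0.29, adjusted p = 1), and of -0.20 without LMACT MA 5. Also ranked among the smallest p-values for MA were those of Snap23 (-0.10) and Syt6 (0.06) over both lines. In HMACT those of Stxbp3 (1.17), Stx3 (0.45) and Snap23 (-0.15) ranked so, and in LMACT that of Vamp1 (0.06). Unadjusted, these limma p-values ran from 0.104 for Stxbp3 to 0.218 for Syt6, all with adjusted p = 1. Syt6 and Vamp1 held 1 value on most arrays, and the Snap23 difference in HMACT was -0.04 without HMACT SAL 1. Without HMACT SAL 3, which stands apart, the differences of Stxbp3 and Stx3 in HMACT were 0.62 and 0.11.

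The interaction, the MA effect in HMACT minus that in LMACT, gave no member an unadjusted p under 0.05, against 2.62% of all genes. The smallest p was that of Stxbp3, at 1.93 (SE 1.00, limma adjusted p = 0.86), followed by Rab34, Snap91 at 0.58 and Rab33a at -0.52. The MA difference of Stxbp3 was 1.17 in HMACT and -0.76 in LMACT, and without the arrays that stand apart its interaction was 0.89. Without HMACT SAL 3 alone, the interactions of Snap91 and Rab33a were 0.34 and -0.33, and without all 4 such arrays 0.32 and -0.19.

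The line differences after SAL went with the array axis, whose scores were computed from these and other genes with group differences left in. Agreement in direction was thus largely built in, and the counts only describe it. Of the 12 varying members that correlated with the axis score at r over 0.7, all 12 were higher in HMACT SAL than in LMACT SAL, and of the 8 with r under -0.7, all 8 were lower. Genes as a whole did the same, at 98% of 1273 genes and 99.6% of 955, so this was not particular to the members. After MA, 7 of the 12 were higher and 7 of the 8 lower in HMACT, against 53.9% and 83.7% of those genes. HMACT SAL scored between -19.7 and 65.0, and LMACT SAL, which holds none of the arrays that stand apart, between -22.8 and -14.0. Of the 20 varying members with r between -0.7 and 0.7, 7 differed by over 0.5 after SAL. The share of all genes doing so was not counted, and most of the 7 still correlated with the axis. Syp (1.11, r = 0.586), Cplx1 (1.00, r = 0.58), Syt11 (0.73, r = 0.366) and Vamp8 (0.60, r = 0.621) were higher in HMACT SAL. Stx4a (-0.55, r = -0.627), Syt1 (-0.59, r = -0.254) and Rab33b (-0.66, r = -0.66) were lower. With the axis score as a covariate the Cplx1 difference after SAL was 0.36, and without the arrays that stand apart 0.52. Averaged over the injections, Rab33b differed between lines by -0.41, and by -0.06 on its other probe set.

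**Figure D3:**
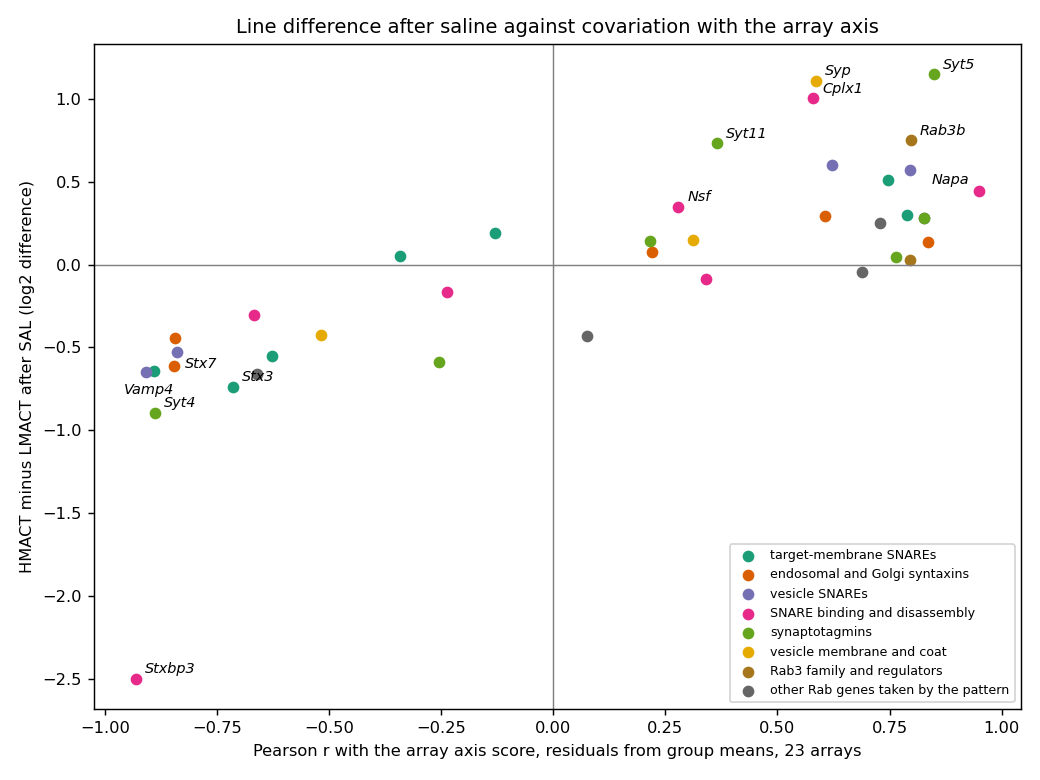
HMACT minus LMACT difference after SAL (log2, vertical) against the Pearson r of each member's within-group deviations with the array axis score (horizontal, 23 arrays), for the 40 varying members, coloured by role. Members with r under -0.7 all lie below 0 and those with r over 0.7 all above it, with Stxbp3 lowest at -2.50 and Syt5 highest at 1.15.

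Covariation within groups was described over pairs of members. The median size of r over 990 pairs of the 45 members above the floor on most arrays was 0.401, against 0.346 over all such genes, and 0.273 against 0.252 without the arrays that stand apart. Close pairs were no more frequent among members: r was over 0.7 in size in 13.1% of member pairs, against 13.2% of all pairs, and in 2.73% against 3.89% without those arrays. The closest pairs were Vamp4 with Syt4 (r = 0.926) and Vamp4 with Stxbp3 (0.911), which came to 0.746 and 0.741 without those arrays. Snap25 with Stx7 (0.894, and 0.867 without them) and Stx3 with Vamp2 (-0.888, and -0.869 without them) changed less. All of these pairs share arrays and normalization.

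**Figure D4:**
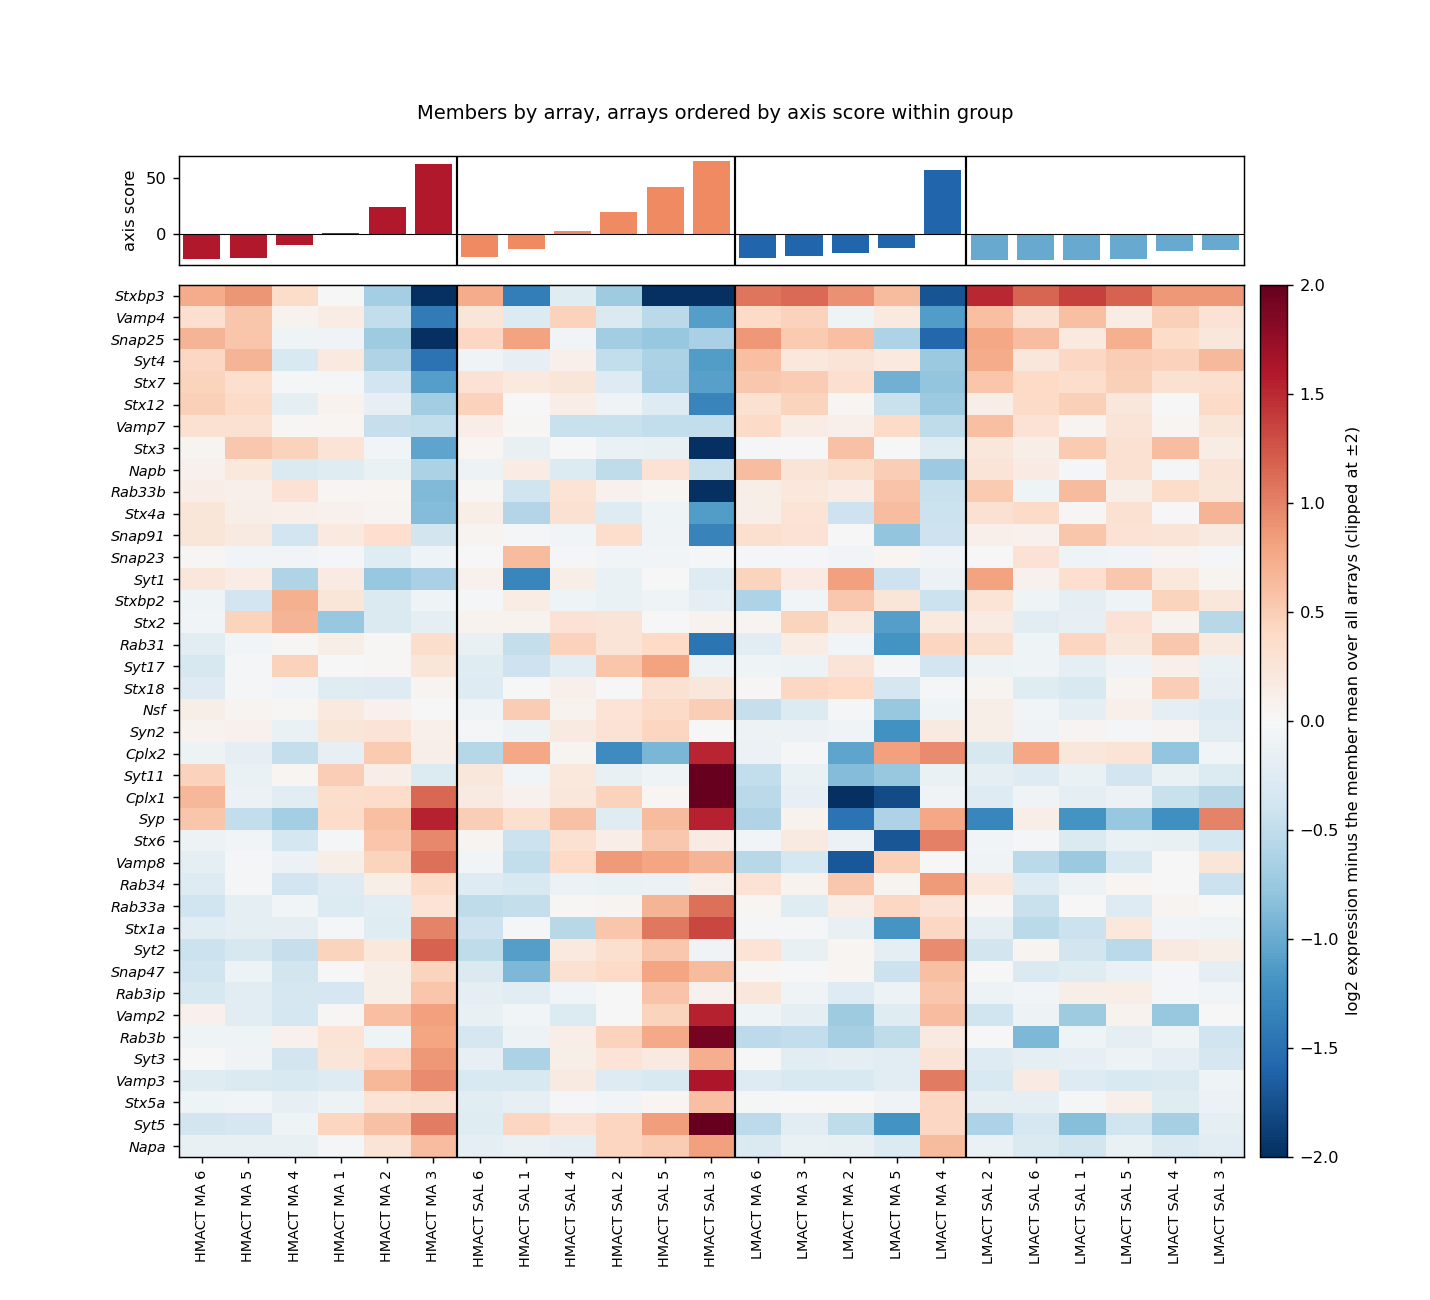
Log2 expression of the 40 varying members minus each member's mean (colour, clipped at ±2), with arrays in columns ordered by axis score within group and members in rows ordered by their r with the axis; bars above show the axis score. The 4 arrays that stand apart, at the right of HMACT MA, HMACT SAL and LMACT MA, show the upper rows low and the lower rows high, and LMACT SAL has no such array.

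A list of 65 further presynaptic genes, covering active zone, endocytosis, transmitter loading and chaperone proteins, had 35 on the array and 31 not at the floor throughout. None was called in any comparison. Between lines 20 were higher and 11 lower in HMACT, with 5 and 3 at an unadjusted p under 0.05. Over all 8251 genes, including those at the floor on every array, 4.97% were higher and 7.7% lower at such a p. After MA 13 were higher and 18 lower. Rabac1, which binds prenylated Rab proteins, differed between lines by 0.62 (SE 0.22, adjusted p = 0.305), and Sypl, a synaptophysin relative, by -0.90 (SE 0.30, adjusted p = 0.264). Hspa8, the chaperone that uncoats clathrin vesicles, differed after MA by -0.22 (SE 0.09, adjusted p = 1), and its partner Dnajc5, the cysteine string protein, by 0.11.

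Cell type markers were compared beside the members. Averaged over the lines, all 9 general neuronal markers were lower after MA as measured, with a median of -0.10 and none called. Within lines, Tubb3, Nefh, Uchl1 and Thy1 were higher after MA in LMACT, and Eno2 was higher in HMACT. Between lines 6 of the 9 were higher in HMACT, with a median of 0.15. The striatal projection neuron markers went the other way for MA in that average: all 5 not at the floor were higher than after SAL, with a median of 0.06 and none called. Of them, only Drd2 was higher after MA in both lines. Pdyn and Pde1b were lower after MA in HMACT. In LMACT, Tac1 was lower after MA and Penk was almost level (14.376 after MA, 14.378 after SAL). Of the oligodendrocyte markers, 5 of 7 were above the floor and all 5 were lower in HMACT averaged over the injections, with a median of -0.27 and none called. After MA all 5 were lower, with a median of -0.58, and after SAL 3 were higher and 2 lower, with a median of 0.02. Their summed level, as log2, ran from 12.10 to 13.17 in HMACT MA, 12.49 to 13.12 in HMACT SAL, 13.21 to 13.60 in LMACT MA and 12.90 to 13.51 in LMACT SAL. Cnp and Ugt8a of that list were at the floor on all arrays. Of the 7 astrocyte markers 5 were lower in HMACT averaged over the injections, with a median of -0.19. Of the microglial markers, 6 of 8 were above the floor and 4 of the 6 were higher in HMACT, with a median of 0.38 over the injections, 0.65 after SAL and -0.11 after MA. Their summed level ran from 10.60 to 10.90 in HMACT MA, 10.24 to 11.84 in HMACT SAL, 10.57 to 11.07 in LMACT MA and 10.76 to 11.13 in LMACT SAL, and Cx3cr1 and Aif1 were at the floor on all arrays. Of 5 striatal projection neuron markers 3 were higher in HMACT, with a median of 0.27, and of 6 vessel markers 4, with a median of 0.07. The part of cell composition in the members' differences was not tested.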

How the data were processed

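RNA from 23 pools of nucleus accumbens, extracted with Trizol, was labelled with biotin and hybridised to 1 Affymetrix array per pool, per the labels' protocols. The deposited values are on a log2 scale, as read from their range, with 44.2% of them under 2.3. How the authors corrected background, summarised probes and normalized is not stated in these sources, although the submitters' processing notes name R 2.7.1. Signal over this floor and the number of arrays limit the precision. Nothing in the labels ties pools to separate sets of animals, so p-values measure the spread between pools.

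Of 12488 probe sets, 10833 were listed with 1 gene in the platform annotation, 396 with several and 1193 not at all, and 66 were controls. These gave 8251 genes, by the probe set with the highest mean. All comparisons came from 1 fit of the 4 group means over 23 arrays with limma 3.58.1 in R 4.3.3 (lmFit, contrasts.fit, eBayes), with no covariate. Tests were two-sided, and Benjamini-Hochberg adjusted p-values over all 8251 genes were called under 0.05. There were 7 comparisons. The fit was tested on simulated data with known changes. The members and lists were chosen with earlier results of these data known.

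Genes named with values are the core genes, members among the smallest p-values in each direction of a comparison (3 for the mean comparisons, 2 otherwise), and members whose groups did not overlap; others named were chosen after their values were seen. A member varied where no value, to 3 decimals, was shared by most arrays. An array stood apart where its axis score exceeded the median by 3.5 scaled median absolute deviations. Same-numbered MA and SAL pools of a line correlated at over 0.1 in 8 of 11 pairs, with r from -0.618 to 0.876. They shared a chip lot except in LMACT 4, and had the same mean age in HMACT 1, 2 and 4. These values leave a shared batch possible. The fit reported did not use the numbers as pairs, and a replicate block was fitted only as an alternative. The alternatives were other normalizations, filters and uses of probe sets, eBayes options, array weights, chip lot, age, a replicate block and leaving out arrays. The axis score as a covariate was chosen after seeing the data. The score is computed from these same expression values with the line difference left in. As a covariate it can therefore take out part of any line difference that lies along the axis.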

Additional observations from a re-analysis of the deposited data

Results flagged for a closer look

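Single arrays lay far from the rest of their group (Dixon's test) in 12 of 92 gene and group combinations tested over 23 named members that varied on most arrays. The test marks about 1 in 20 independent groups by chance. These combinations share arrays, and most of the genes were named from the same data, so that rate cannot show an excess here. Of the 12, 8 were on the 4 arrays that stand apart. On HMACT SAL 3, Cplx1 was high at 10.1 (others 6.77 to 7.2), and Snap91 and Stx3 were low at 6.83 and 3.12. HMACT MA 3 had high Stx1a at 8.37 (others 7.14 to 7.34) and low Stx3 at 4.17. LMACT MA 4 had high Napa at 10.8, and low Napb at 7.61 and Stxbp3 at 5.21 (others 7.56 to 8.06). On arrays that do not stand apart, HMACT SAL 1 had high Snap23 at 3.25 and low Syt1 at 5.67. LMACT MA 5, with the high 3' to 5' difference, had Snap23 at 2.65 (others at 2.57) and low Syn2 at 8.76. Syt6 held 2.33 on most arrays, so any other value stands out, and it is not counted above: it was 2.47 on HMACT SAL 3, 2.83 on LMACT MA 4 and 2.31 on LMACT SAL 3.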

How the results depend on the processing

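No member was called for MA under any alternative, nor between the lines in the fit reported. Members called between lines numbered 14 with arrays centred on their median (12 higher and 2 lower, 2 of the 14 at the floor on every array), 10 with array weights and 1 without the arrays that stand apart. The centring shifted all genes by 0.06 on the log2 scale, and 94.7% of genes it called were higher in HMACT, against 68.8% in the fit reported. Array weights called 1 member between lines after MA (Nsf), 1.92% against 1.65% of all genes, and 3 after SAL (Stxbp3, Syt5 and Vamp7), 5.77% against 2.86%. Leaving out 1 array at a time gave 0 to 1 members between lines and 0 in the other comparisons. Members without overlap between lines after MA were 0 with quantile normalization, against 0.642% of all genes, and 4 (7.69%) without the arrays that stand apart (Napb, Nsf, Rab3b and Syt11), against 2.71% of all genes, and 1.92% against 0.521% in the fit reported. Without those arrays the median size of r between members was 0.273. A replicate block, fitted at a correlation of 0.224, called 0 members in all 7 comparisons. Of 760 values of named members under alternatives other than leaving out 1 array, 15 changed direction, all of them not called. For MA these were Napb at -0.183 and Vamp2 at -0.179 with the mean of probe sets, Napa at -0.105 and Snap25 at 0.270 with array weights, Cplx2 at -0.0569, Napa at -0.0166 and Syp at 0.0358 in the largest chip lot, Napb at -0.00912, Snap23 at 0.00511 and Syt2 at -0.0562 under 100 days (and Snap23 in HMACT at 0.00458), Syt1 at 0.0323 without the arrays that stand apart, and Napa at -0.0124 with the axis score. Between lines Snap25 turned to 0.0301 under 100 days and 0.102 with the axis score. Leaving out 1 array turned the MA direction of Cplx2 (range -0.0663 to 0.212), Napa (-0.0567 to 0.0881), Napb (-0.0350 to 0.132), Syp (-0.163 to 0.134) and Vamp2 (-0.0401 to 0.181), and of Vamp1 in LMACT (-0.000104 to 0.0755). The causes were not tested.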
